A study of Drosophila melanogaster with 4 samples.

Results

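The interior of the X chromosome held 985 clusters of the linker histone H1, out of 15736 clusters in the combined list of this series and 1157 on all of X. A cluster is a region that the authors called as enriched for H1. The members are the combined clusters that lie whole inside the 20 Mb of X that begin 1 Mb from its start and end at position 21000000, a window defined by position. Coordinates are those of FlyBase release 5 and count from 1. Chromatin came from head nuclei of mixed adult Oregon-R flies, a wild-type strain of Drosophila melanogaster, with no treatment and no other genotype. The series has 2 H1 ChIP replicates and 2 input samples, and each ChIP replicate has its own list, with 109 and 78 clusters in the window in replicates 1 and 2. The labels give neither the sex of the flies nor whether the replicates came from separate collections, so a spread between replicates may be technical. Heads hold neurons, glia, muscle, fat body and other cells, and the lists cannot tell fewer cells with H1 at a place from less H1 per cell.

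H1 binds the nucleosome where the DNA enters and leaves it, and it takes part in packing nucleosomes into compact chromatin. The fly has a single H1 protein in its somatic cells. The X of male flies is the target of dosage compensation, in which the MSL complex binds along the chromosome, acetylates histone H4 and raises transcription of its genes. This acetylation is known to loosen the packing of nucleosomes. None of these marks was measured here.

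Each cluster carries a deposited score, read here as the log2 of its enrichment over input, and fold enrichment below is 2 raised to that score. The lists name only what passed the authors' threshold, so a stretch without clusters is not a stretch shown to lack H1. The sequencing depth is unknown. No cluster lay across an edge of the window. The nearest inside were at 1004219 to 1005405 (1.41-fold) and 20974152 to 20975556 (1.47-fold), and the nearest outside were at 984740 to 985775 (1.52-fold) and 21013313 to 21015155 (1.44-fold).

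Most X clusters were short and of low enrichment. The combined clusters covered 1.44 Mb, or 7.22% of the window, at 49.2 clusters per Mb. Their median length was 1309 bp, with quartiles of 1090 and 1689 bp and a range from 1001 to 6290 bp. In all, 50 of them had the shortest length of 1001 bp, and 19 (1.93%) reached 3 kb. The median fold enrichment was 1.48, with quartiles of 1.43 and 1.52. Median lengths in the replicate lists were 1445 bp in replicate 1 and 1475 bp in replicate 2, but the shortest cluster there measured 1302 bp in both, so these medians and that of the combined list rest on different length floors. Their median fold enrichment was 1.82 and 1.67 in the same order. Length and score were weakly and inversely related over the 985 combined clusters (Spearman's rho = -0.28), whereas rho was 0.19 over the 109 clusters of replicate 1 and 0.04 over the 78 of replicate 2. These values are descriptions, since clusters of 1 list share its libraries and its threshold.

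**Figure D1:**
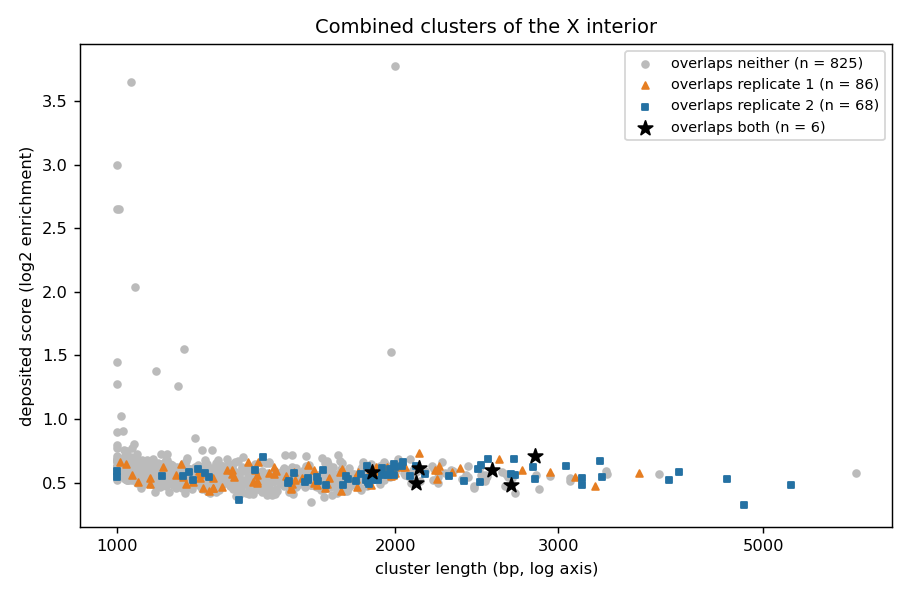
Length in bp (log axis) and deposited score (log2 enrichment) of the 985 combined clusters of the X interior, with 1 point per cluster and a symbol for the replicate lists it overlaps. Nearly all points lie in a band around the median score of 0.56. The 13 clusters of 2-fold or more overlap neither replicate, as do 83.8% of all 985. The 6 that overlap both measure from 1887 to 2835 bp.

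The longest cluster of the X interior lay at 1522298 to 1528587, measured 6290 bp at 1.49-fold and overlapped neither replicate list. The next was at 15059809 to 15065167, with 5359 bp at 1.398-fold, and overlapped replicate 2. The third, at 6919435 to 6924194, measured 4760 bp and had the lowest score of all 985 members, at 1.25-fold. The other 7 of the 10 longest lay at 13411485 to 13416052, 14427784 to 14431833, 1850161 to 1854115, 4701652 to 4705512, 2386306 to 2389975, 4674201 to 4677591 and 19964753 to 19968129. They measured from 3377 to 4568 bp at folds from 1.44 to 1.51. Of these 10 clusters, 5 overlapped replicate 2, 1 overlapped replicate 1 and 4 overlapped neither. Among all 985 members, 6.90% overlapped replicate 2 alone, 8.73% replicate 1 alone and 83.8% neither. The room that length itself gives for overlap was not tested. The eleventh, just short of the 10, measured 3348 bp.

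The strongest scores belonged to other clusters. The highest was at 14175948 to 14177946 (13.7-fold, 1999 bp), followed by 2717834 to 2718868 (12.5-fold, 1035 bp) and 2965014 to 2966014 (7.98-fold, 1001 bp). The clusters at 14933132 to 14934136 and 18651059 to 18652059 had 6.27-fold each. The other 5 of the highest 10 had folds from 2.61 to 4.11 and lay at 3623269, 20177246, 12276150, 18648211 and 19839098 by their starts. None of the 20 clusters of at least 1.7-fold overlapped a cluster of either replicate. A measure of the input reads behind them can be had from the scores. Raised as a power of 2, a score is a ratio of whole numbers times a constant of its list, and the divisor in lowest terms, called the reduced input count here, was 1 or 2 in the 5 highest, 17 or less in the highest 10 and 47 or less in all 20. The authors did not give this count, and shared factors can make it smaller than the true one.

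Spacing was uneven. The median gap between neighbouring combined clusters was 6261 bp and the mean 18828 bp, with quartiles of 2082 and 17369 bp. Gaps of at most 1 kb made up 14.02% of the 984 gaps and gaps of at least 50 kb made up 10.5%. The coefficient of variation of the gaps was 1.95. In the replicate lists, the median gap was 129717 bp in replicate 1 and 117718 bp in replicate 2, and the coefficients of variation were 0.999 and 1.20. Joined across gaps of up to 5 kb, the combined clusters formed 560 groups. Of the 985 clusters, 346 (35.1%) stood alone and 425 (43.1%) were in groups of 3 or more. Clusters in such groups had a median length of 1360 bp, and those alone had 1253 bp, at folds of 1.48 in both classes. A replicate cluster overlapped 18.1% of the grouped clusters and 14.7% of the lone ones. The group with most members held 10 clusters in 28.8 kb, from 20229043 to 20257805, and replicate 1 had 1 cluster there and replicate 2 none. The next held 9 clusters each, at 1036896 to 1062457 and 7269404 to 7302399.

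**Figure D2:**
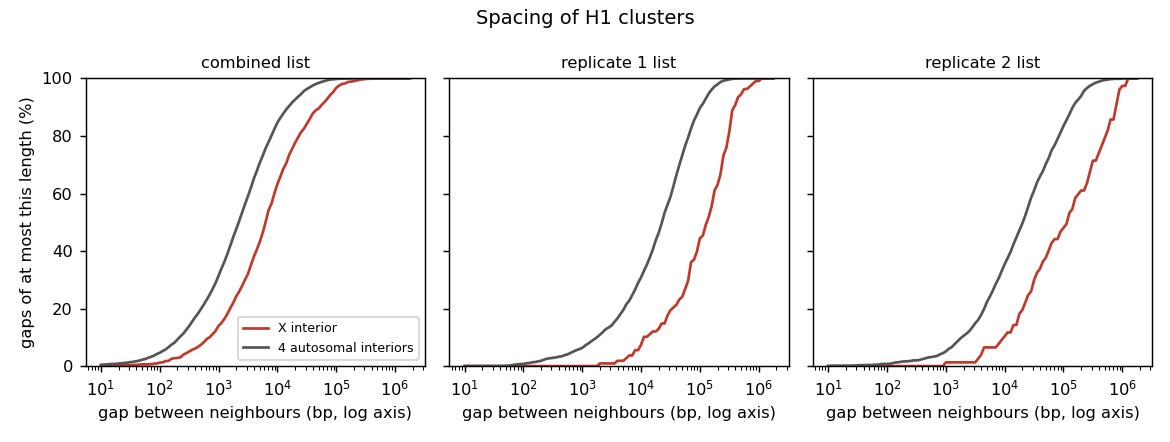
Cumulative share of gaps between neighbouring clusters (vertical axis, percent) up to a given length (horizontal axis, bp, log axis), for the X interior and for the interiors of 2L, 2R, 3L and 3R together, in each of the 3 lists. The X curve lies to the right of the autosomal curve in every list, with a median gap of 6261 bp on X and 2200 bp on the autosomes in the combined list.

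Combined clusters were bunched along the X interior, as the profile of 100-kb bins shows. Over the 200 bins, the combined list had a median of 4 clusters and a highest value of 18, and 22 bins (11%) had none. The variance of the count was 3.72 times its mean in the combined list, against 1.07 times in replicate 1 and 1.52 times in replicate 2. A list with few clusters per bin can have a ratio near 1 even if they are bunched, so the value of replicate 1 does not show evenness. The mean counts per bin were 4.925, 0.545 and 0.39 in that order, so the ratios of the lists are not directly comparable. On the autosomal interiors the ratios were 3.36, 1.45 and 2.36, so bunching was not particular to X. A bin is called hot here if its combined coverage was at least 2 times the mean of all bins, or 14.4%, and cold if it was at most 0.25 times, or 1.81%. By this rule 34 bins were hot and 48 were cold. The hot bins, 17.0% of the window, held 412 of the 985 clusters (41.8%), and the cold bins, 24.0% of the window, held 26 (2.64%). Clusters in hot, middle and cold bins had median lengths of 1385, 1270 and 1156.5 bp, while their median folds were 1.48, 1.48 and 1.49. Their median reduced input counts were 79.7, 78.5 and 83.8 per kb. Bins were classed by covered bases, so the shares of clusters and the order of the lengths follow in part from the rule. The longest cluster in a cold bin measured 1688 bp. By value, the clusters of hot bins scored no higher than those elsewhere.

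**Figure D3:**
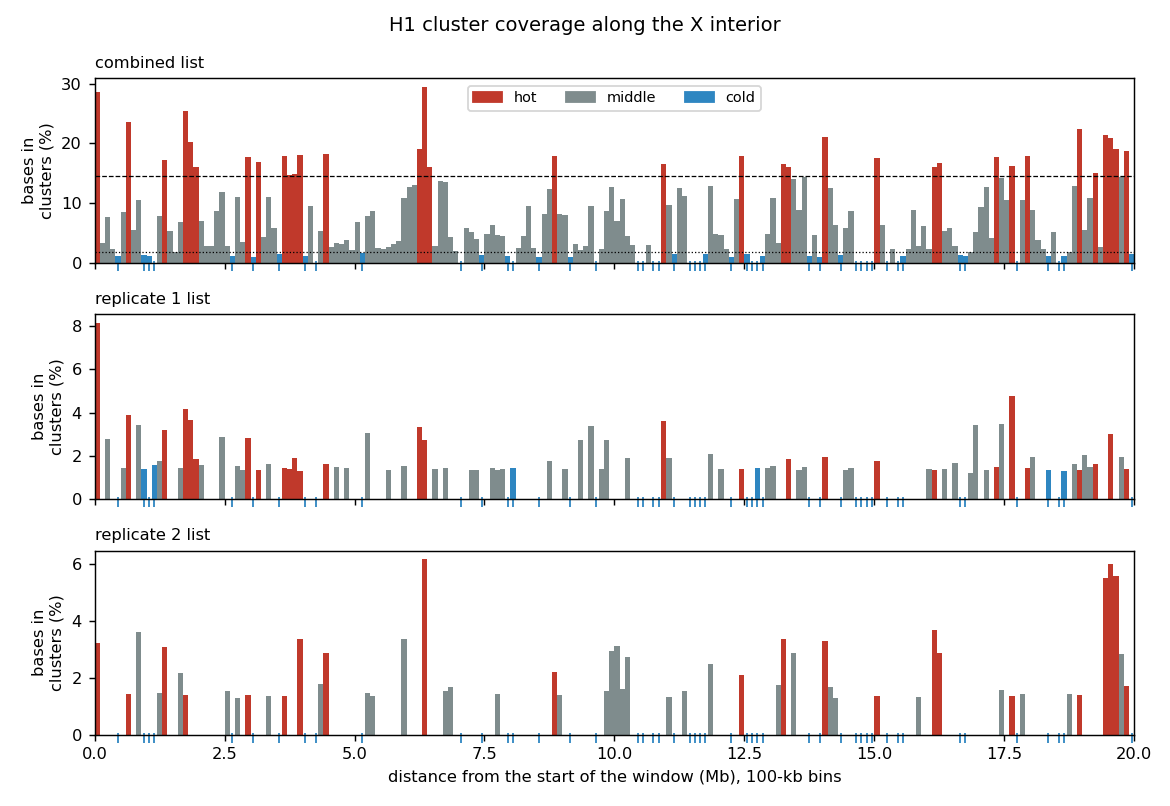
Share of bases in H1 clusters (vertical axes, percent) in 200 bins of 100 kb along the X interior (horizontal axis, distance from the start of the window in Mb), for the combined list and the 2 replicate lists. Colours and the ticks under the cold bins give the class of a bin in the combined list, and the dashed and dotted lines are its limits of 14.4% and 1.81%. Hot bins gather near both ends of the window, and no cluster of replicate 2 lies in a cold bin. The combined list was made from the replicates, and 73.5% of all 200 bins have no cluster of replicate 2.

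The bin with the highest coverage ran from 7300001 to 7400000, with 18 combined clusters and 29.4% of its bases in clusters. Replicate 1 had 2 clusters in it and replicate 2 had 4, covering 2.72% and 6.18%. The first bin of the window, which ends at 1100000, followed with 17 clusters and 28.5%, and it was the most covered bin of replicate 1, at 8.14% with 5 clusters, while replicate 2 had 2 clusters and 3.23%. The bins from 2700001 to 2800000, 1600001 to 1700000 and 19900001 to 20000000 had 25.4%, 23.5% and 22.4%. Both replicates had clusters in all 5 of these bins, and in 32 of all 200 bins. The 5 bins, like the hot stretches below, were chosen on the combined list, which was made from the replicates. Replicate clusters in them are therefore not an independent check.

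Hot bins formed 23 stretches, of which 17 were a lone bin. The longest was the 400 kb from 4600001 to 5000000, with 38 combined clusters and 16.4% coverage. Replicate 1 had 4 clusters there and replicate 2 had 3. The hot stretches of 300 kb lay at 2700001 to 3000000, 7200001 to 7500000 and 20400001 to 20700000, with 20.6%, 21.5% and 20.4% coverage. The replicates differed in 2 of these 3. From 2700001 to 3000000, replicate 1 had 6 clusters and replicate 2 had 1. From 20400001 to 20700000, replicate 1 had 2 clusters and replicate 2 had 11. From 7200001 to 7500000 each had 4.

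Cold bins formed 31 stretches. The longest measured 400 kb each and lay at 12400001 to 12800000, 13500001 to 13900000 and 15600001 to 16000000, with 1, 2 and 0 combined clusters. Replicate 1 had 1 cluster in the second of them and none in the other 2, and replicate 2 had none in any. The longest gap of the combined list ran for 431 kb from 15578366 to 16009370. It held no cluster of replicate 1 and 1 of replicate 2, which the combined list does not have. The next were 342 kb from 12383293, 292 kb from 11368612, 257 kb from 8927470 and 249 kb from 11678146. Only the fourth of these 5 gaps held a cluster of replicate 1, and none but the first held one of replicate 2. Cold stretches and gaps were chosen on the combined list, which was made from the replicates. Replicate counts in them are therefore not an independent check. Over all 200 bins, 58% had no cluster of replicate 1 and 73.5% had none of replicate 2. How much of these stretches reads can be aligned to is not known from these files, and its part in the cold stretches was not tested.

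Cut into segments of 4 Mb, the window had more coverage in its first and last segments than in those between, in all 3 lists. The combined list was made from the replicates, so it is not independent of them. In 5 consecutive segments of 4 Mb, from the start of the window, the combined coverage was 9.22%, 6.56%, 5.38%, 5.95% and 9.00%. Replicate 1 had 1.44%, 0.653%, 0.606%, 0.455% and 1.04%, and replicate 2 had 0.669%, 0.544%, 0.525%, 0.477% and 0.886%. Both replicates thus had their lowest value in the fourth segment and their highest 2 in the first and last. Hot bins numbered 12, 4, 2, 5 and 11 of 40 in the same order, and cold bins 7, 6, 13, 15 and 7. The median fold was nearly level, with median scores from 0.56 to 0.57 in the 5 segments. The difference between segments was not tested, since each list gives 1 value per segment. In windows of 1 Mb the middle was not always lower. The 1-Mb window from 7000001 to 8000000 had 12.6% in the combined list, against 9.20% in the first 1-Mb window. In the same order, replicate 2 had 0.942% and 0.829%, and replicate 1 had 0.891% and 2.11%.

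Places found by both replicates were few. Clusters of replicate 1 overlapped a cluster of replicate 2 in 6 of 109 cases (5.50%, 95% Wilson interval 2.55 to 11.5), and the reverse held for 6 of 78 (7.69%, 3.57 to 15.8). The intervals cover counting error only. Shared bases came to 5.60 kb, or 1.96% of the bases in either list. The median distance from a replicate 1 cluster to the nearest cluster of replicate 2 was 41459 bp, and 33 of 109 had one within 20 kb. In the other direction the median was 26992 bp, and 31 of 78 had one within 20 kb.

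The 6 shared places were spread over the left and centre of the window. At 1081877 to 1084711, replicate 1 had a cluster of 1.96-fold and replicate 2 one of 1.69-fold with 1205 bp in common, and the combined cluster had 1.63-fold. This was the highest combined fold of the 6. At 6283413 to 6285299, replicate 1 had 2.35-fold, its highest value in the window, and replicate 2 had 1.67-fold, with 1149 bp in common. At 5428197 to 5430319 the folds were 1.82 in replicate 1 and 1.64 in replicate 2, with 1041 bp in common. Replicate 1 had the higher fold at 4 of the 6 places. At 7371046 to 7373712 the folds were 1.69 and 1.64 in replicates 1 and 2, with 530 bp in common. At 3722292 to 3724834 they were 1.61 and 1.71, with 517 bp in common, and at 11207476 to 11209581 they were 1.445 and 1.55, with 1158 bp in common. Only these 6 combined clusters overlapped both replicates. They ranked from 25 to 144 in length among the 985 and from 34 to 878 in score.

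The replicates were also compared bin by bin. Each list named bins that can be looked up in the other, which rests on other libraries. Of the 20 bins with 2 or more clusters of replicate 1, 12 (60.0%) had a cluster of replicate 2, against 41 of the 180 other bins (22.8%). Of the 18 bins with 2 or more clusters of replicate 2, 11 (61.1%) had one of replicate 1, against 73 of the 182 others (40.1%). Over the 200 bins, the counts of the replicates had a Spearman's rho of 0.26 and a Pearson's r of 0.29, given as a description, since bins share libraries and any unevenness in how reads align. Both replicates had a cluster in 32 bins and neither had one in 95. In all, 84 of the 200 bins had a cluster of replicate 1 and 53 had one of replicate 2. Of the bins called hot in the combined list, 28 of 34 had a cluster of replicate 1, 22 had one of replicate 2 and 17 had both. Of the 48 cold bins, 6 had a cluster of replicate 1 and none had one of replicate 2. The combined list was made from the same replicates, so these last counts are not an independent check.

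The combined list was then set against the replicate lists. Of the 985, 86 overlapped replicate 1 alone (8.73%), 68 overlapped replicate 2 alone (6.90%), 6 overlapped both and 825 (83.8%, 95% Wilson interval 81.3 to 85.9) overlapped neither. On the autosomal interiors 71.5% of combined clusters (70.7 to 72.4) overlapped neither, and over the whole combined list 69.9% did. Replicate clusters were sparser on X, at 5.45 and 3.90 per Mb in replicates 1 and 2, than on the autosomes, at 23.7 and 18.0. Sparser lists meet less often, and the difference between X and the autosomes was not tested. On X the median lengths were 1573, 1902, 2333 and 1253 bp for overlap with replicate 1 alone, replicate 2 alone, both and neither. With the members split by length into 4 classes of 246 or 247, the share with a replicate cluster was 3.25%, 8.94%, 17.1% and 35.6% from the shortest to the longest. No replicate cluster of the window was under 1300 bp, while 483 of the 985 combined clusters (49.0%) were. The part of this length floor in the shares, and of the room that length itself gives for overlap, was not tested. Split likewise by score, the share was 16.7%, 17.5%, 16.7% and 14.2% from the lowest to the highest. The median length fell over these classes, at 1454.5, 1389, 1223.5 and 1132 bp in the same order. Score was thus not compared at equal length. In the reverse direction, the combined list of X held 90 of the 109 clusters of replicate 1 (82.6%, 74.4 to 88.5) and 74 of the 78 of replicate 2 (94.9%, 87.5 to 98.0). On the autosomal interiors the same shares were 93.8% for replicate 1 and 97.4% for replicate 2. The 19 X clusters of replicate 1 that it lacked had a median fold of 1.83, and the 90 that it held had 1.81.

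X was then set beside the interiors of 2L, 2R, 3L and 3R, each from 1 Mb after its start to 1 Mb before its last full Mb, 87 Mb in all. In replicate 1, clusters covered 0.840% of the X interior and 3.93% of the autosomal interiors. In replicate 2 they covered 0.620% of X and 3.01% of the autosomes. The means were 0.730% ± 0.156 on X and 3.47% ± 0.650 on the autosomes (SD, n = 2 replicates), a difference of -2.74 points ± 0.495 and a ratio of 0.210. The difference had the same direction in both replicates and exceeded the spread between them. An exact sign-flip test over 2 replicates cannot give less than its two-sided p of 0.5, so the difference did not and could not pass. In the combined list the coverage was 7.22% on X and 23.1% on the autosomes, a ratio of 0.313.

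**Figure D4:**
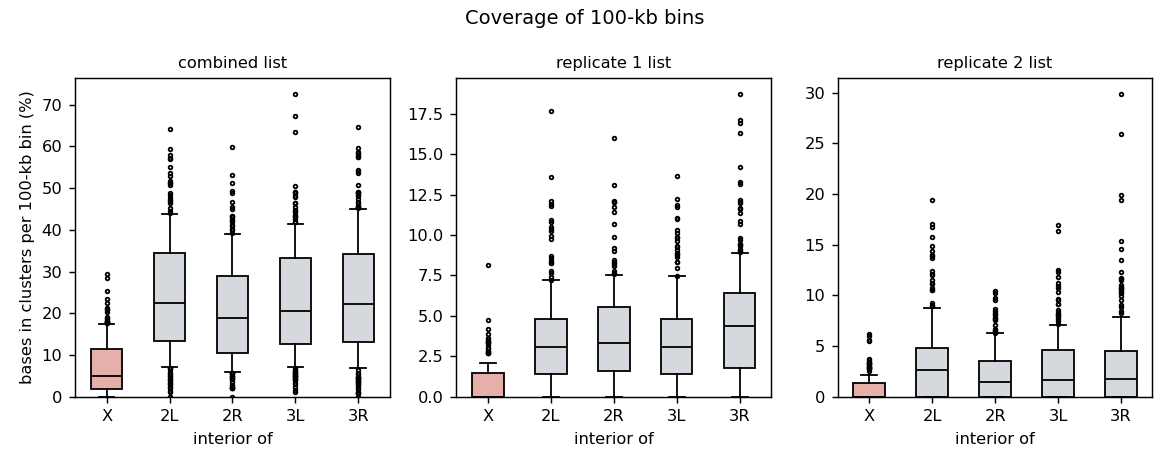
Share of bases in clusters per 100-kb bin (vertical axes, percent) in the interior of each arm, for the 3 lists. Boxes span the quartiles with a line at the median, whiskers run from the 10th to the 90th percentile, and points are bins beyond them. In the combined list the median bin had 4.96% on X and from 18.8% to 22.5% on the 4 autosomal arms.

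The lower coverage of X was mainly a matter of fewer clusters. In the combined list there were 49.2 clusters per Mb on X and 125 per Mb on the autosomes, a ratio of 0.393, and the mean length was 1466 bp on X and 1844 bp on the autosomes, a ratio of 0.795. In the replicates, the density ratio was 0.230 and 0.217 and the length ratio 0.929 and 0.9498. Clusters of 3 kb or more made up 1.93% of the combined clusters on X and 10.9% on the autosomes. Of the 200 bins of X, 8 reached the median coverage of the autosomal bins, which was 20.6%, and 64 of 870 autosomal bins were at or below the X median of 4.96%. Bins without a combined cluster made up 11% on X and 0.575% on the autosomes. X had 32 gaps of at least 100 kb in 20 Mb, and the 4 autosomal interiors had 20 in 87 Mb, none longer than the 189 kb found on 2L. The coefficient of variation of the gaps was 1.95 on X and 1.92 on the autosomes in the combined list, 0.999 on X and 1.26 on the autosomes in replicate 1, and 1.20 on X and 1.62 on the autosomes in replicate 2. Replicate clusters were shared less on X by value, with 5.50% of replicate 1 clusters on X and 12.7% on the autosomes in replicate 2 as well, and 7.69% on X and 16.9% on the autosomes in the other direction. Denser lists also meet more often, and this difference was not tested.

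Which of them had more clusters depended on the fold enrichment kept. X clusters scored higher than autosomal ones, with a median fold of 1.48 on X and 1.34 on the autosomes in the combined list, 1.82 and 1.57 in replicate 1, and 1.67 and 1.51 in replicate 2. The low end was shifted too. The 5th percentile of fold was 1.37 on X and 1.27 on the autosomes in the combined list, 1.61 and 1.42 in replicate 1, and 1.51 and 1.39 in replicate 2. At 1.4-fold or more, the combined list kept 857 clusters on X (42.9 per Mb) and 1140 on the autosomes (13.1 per Mb), so the density on X was 3.27 times that on the autosomes. At 1.5-fold or more it kept 367 on X and 110 on the autosomes, a density ratio of 14.5. The densities crossed at 1.36-fold in the combined list, at 1.64-fold in replicate 1 and at 1.58-fold in replicate 2. At 1.7-fold or more, replicate 1 kept 89 clusters on X and 167 on the autosomes, a density ratio of 2.32, and replicate 2 kept 32 on X and 19 on the autosomes, a density ratio of 7.33. The density was thus lower on X at the authors' own threshold and higher on X at the limits given here above each crossing, up to 2-fold. Counts at 2-fold were small in the replicates. Replicate 1 kept 11 clusters on X and 2 on the autosomes, and replicate 2 kept 1 on X and 4 on the autosomes, a density ratio of 1.09.

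**Figure D5:**
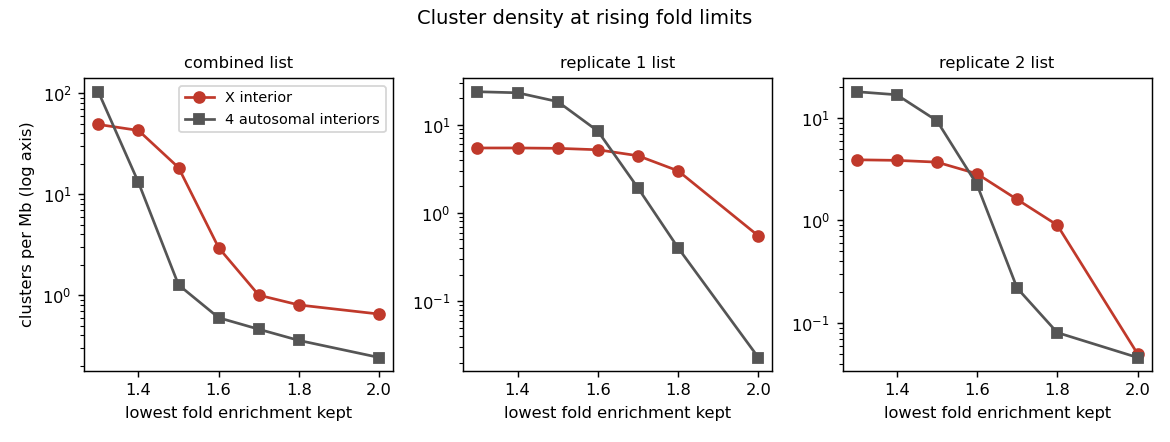
Clusters per Mb (vertical axes, log axis) of at least a given fold enrichment (horizontal axes) in the X interior and in the 4 autosomal interiors together, in each of the 3 lists. X lies below the autosomes at the left of every panel and above them from the plotted limit of 1.4-fold in the combined list, 1.7-fold in replicate 1 and 1.6-fold in replicate 2, up to the last plotted limit of 2-fold. At 2-fold, replicate 2 has 1 cluster on X and 4 on the autosomes.

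The reduced input counts of the clusters, which can be smaller than the true read counts, differed in the same comparison. The median reduced input count per kb was 79.2 for X and 154 for the autosomes in the combined list, 30.2 and 63.5 in replicate 1, and 30.4 and 77.2 in replicate 2. The ratios of X to autosomes were 0.515, 0.476 and 0.395 in the same order. The part of input depth in the number of X clusters, in their scores and in the crossing was not tested, and with these lists the level of H1 on X and the power to call it cannot be told apart.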

How the data were processed

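Chromatin immunoprecipitation and sequencing of H1 was done on fly head nuclei, with 2 ChIP replicates and 2 inputs. Per the submitters' processing notes, the aligner was Bowtie 0.12.7. No source used here gives the caller, its threshold or how the replicates were combined. The authors deposited 1 list of clusters per replicate and 1 for the replicate set, on FlyBase release 5, per the file headers. The deposited score is unnamed and was read from the values as the log2 of ChIP over input: raised as a power of 2, 99.9% of combined scores and 99.96% of replicate 1 scores are a ratio of whole numbers (divisor up to 2000, relative tolerance 1e-09) times 1 constant per list, taken between 0.707 and 1.41 (1.14 combined, 1.17 and 1.11 in replicates 1 and 2). Another constant would scale the reduced input counts of a whole list.

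Overlap meant at least 1 bp. Bins of 100 kb took clusters by midpoint and coverage by bases. Named regions are the 10 longest and 10 highest-scoring combined clusters, all overlaps of replicate clusters, the 5 most covered bins, the 5 longest gaps, the longest hot and cold stretches, and the clusters at the window's edges. The members and lists were chosen with earlier results of these data known. The functions were tested on simulated clusters. Python 3.11.15, numpy 2.4.6 and scipy 1.17.1 were used. Clusters, gaps and bins are not replicates, so none was resampled. The gene table used here is of release 6, so no gene was placed on a cluster and no sequence was read.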

Additional observations from a re-analysis of the deposited data

How the results depend on the processing

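Depth is unknown and 2 replicates are the whole measure of error. Of 62 alternative values, 29 stayed within their error or within 1.5 times a count, 29 were counted as moved and 4 turned round. The combined list has no replicate error, and small changes in it were also counted as moved. Its coverage of X went from 7.22% to 6.95% with the highest-scoring 50%. Its rho with replicate 1 across bins went from 0.485 to 0.481 in 250-kb bins. The 29 moves are thus not all beyond an error. Limits of 1.4, 1.5 and 1.7-fold were chosen after seeing the data, and the cause of the changes they bring was not tested. The 4 turns all came from them: the ratio of X to autosomal coverage became 2.21 at 1.4-fold and 11.9 at 1.5-fold in the combined list (0.313 in full) and 2.20 at 1.7-fold in the mean of the replicates (0.210 in full), where the difference became 0.259 points (-2.74 in full). At 1.5-fold the ratio of the replicates was 0.294 and the difference -1.69 points.

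With the highest-scoring 50% of each list, which takes few clusters from X, the combined coverage of X was 6.95%, the ratios 0.748 (combined) and 0.467 (replicates) and the difference -0.779 points. With combined clusters no shorter than any replicate cluster, X had 501 clusters, coverage of 4.54%, a median gap of 11569 bp, a ratio of 0.2504, 25.9% of clusters in a replicate and 29.0% of bins empty. On all of X and the whole autosomal arms, coverage was 7.65% and the ratios 0.329 and 0.234. Empty bins made up 29.2% at 50 kb and 1.25% at 250 kb, by construction of the bins. Leaving out a replicate in turn gave X coverage of 0.620% to 0.840%, ratios of 0.206 to 0.214 and differences of -3.09 to -2.39 points.

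X and autosomes were compared within each replicate. No paired analysis was possible because, between ChIP and input samples of the same number, the inputs have no list of their own here.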

Other observations

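In the combined list, the interior of X was covered to 7.22%, against 9.05% (57 clusters) in the 1 Mb of X before it and 12.7% (115 clusters) in the 1.42 Mb after it. Within the interior, the 1-Mb window next to the far end, from 20000001 to 21000000, was the most covered in the combined list (12.97%) and in replicate 2 (2.16%, 14 clusters), while replicate 1 had 1.14% there (7 clusters). Replicate 1 had its highest value, 2.11% with 13 clusters, in the first 1-Mb window, which ends at 2000000, where replicate 2 had 0.829% with 5 clusters.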
